A study of Mus musculus with 99 samples.

Results

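RNA from mouse embryonic stem cells that express a wild-type RING1B transgene was compared with RNA from the Parental cells they were made from, both after their own Ring1B had been deleted, to see what the transgene restores. The comparison used 4 libraries, 2 of RING1B WT +OHT and 2 of Parental +OHT, which were chosen by their group labels from the 16 RNA libraries among the 99 samples of the series. Both lines are ROSA26::creERT2 RING1A-/-; RING1B fl/fl, so that RING1A is missing throughout and 4-hydroxytamoxifen (OHT, 0.5 µM for 72 h) makes the Cre recombinase remove the floxed Ring1B, while the −OHT cells received ethanol. The RING1B WT line carries 2xFlag-HA RING1B WT under the ubiquitous pCAG promoter and was grown from puromycin-selected clones, so the line and the transgene cannot be told apart in this comparison. The other libraries enter the statistical fit (12 libraries in all) and serve as references, namely both lines without OHT, and cells with the transgene RING1B I53S, a point mutant without ubiquitin ligase activity, with and without OHT. All cells were cultured with serum, LIF and 2i, the pair of kinase inhibitors that holds embryonic stem cells in a naive state.

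RING1B, encoded by Rnf2, and its paralogue RING1A are the E3 ligases of Polycomb repressive complex 1 (PRC1), which attaches a single ubiquitin to a lysine of histone H2A (H2AK119ub1). In embryonic stem cells PRC1 sits mostly at CpG-rich promoters of developmental regulators, together with PRC2, which methylates lysine 27 of histone H3 (H3K27me3), and these genes are kept at very low levels. Genes of the Hox clusters, lineage-determining transcription factors and many signalling ligands are its classical targets, and a variant form of the complex, PRC1.6, is known for silencing germline genes.

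The 4 libraries held 8140106 to 10785117 counted reads, and the 8 embryonic stem cell markers tested were detected in each of the 12 libraries. Their summed level was 3240 and 3320 CPM (counts scaled to the TMM-adjusted total of each library) in Parental +OHT and 5290 and 5470 CPM in RING1B WT +OHT. Of 10 fibroblast markers 4 passed the filter on low counts, and they summed to 66.1 and 68.7 CPM in Parental +OHT against 34.4 and 33.0 CPM in RING1B WT +OHT, with 1 of them, Col1a2, called lower, a call lost without any 1 of the 4 libraries. The labels do not say whether the replicates came from separate cultures, so p-values measure the spread between these samples only. In bulk RNA, fewer cells expressing a gene and less RNA of it per cell cannot be told apart.

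Rnf2 itself was counted over the whole gene (chr1:151458004-151500955 in mm10, minus strand), which takes in the transgene's coding sequence, any exons left after recombination and the undeleted allele alike. It stood at 144 and 167 CPM in Parental +OHT and at 260 and 233 CPM in RING1B WT +OHT. The difference was 0.66 ± 0.20 on the log2 scale (SE, edgeR quasi-likelihood test, adjusted p = 0.0228), below the fold required for a call, and the whole-gene count cannot show the deletion. In the chromatin data RING1B peaks were found at the promoters of 1.72% of tested genes in Parental +OHT, 19.8% in Parental −OHT and 14.8% in RING1B WT +OHT, each from 1 peak list per group. Ring1, the gene of RING1A, stayed between 1.11 and 2.62 CPM in the 4 libraries.

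A gene was called when its adjusted p was under 0.05 and its change at least 1.5 on the log2 scale. After OHT, 1384 of 18154 tested genes were lower in RING1B WT than in Parental (7.62% of those tested) and 192 were higher (1.06%), against a median log2 fold change of -0.03 over all tested genes. The lower genes had a median change of -2.32 and the higher genes one of 2.12. Of the lower genes 1315 (95.0%) were protein-coding, whereas of the higher genes 97 (50.5%) were, beside 28 long intergenic RNAs and 23 processed pseudogenes. The number of lower genes fell to 759 and 805 when the first and second Parental +OHT library was left out, and to 560 and 988 on leaving out replicate 1 and 2 of RING1B WT +OHT, and that of the higher genes to 124 without Parental +OHT replicate 2.

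Most of the lower genes had low levels where endogenous RING1B was present. Their median level was 0.583 CPM in Parental −OHT and 0.49 CPM in RING1B WT −OHT, libraries that the comparison did not use, and 63.2% and 67.8% of them stood under 1 CPM there, although some leading ones such as Pdpn (54.4 and 40.4 CPM in Parental −OHT) were well expressed. In Parental +OHT the median was 5.9 CPM and in RING1B WT +OHT it was 1.24 CPM, with 44.6% of the lower genes under 1 CPM. The higher genes had a median of 5.24 CPM in Parental −OHT and 6.55 CPM in RING1B WT −OHT, against 1.31 CPM in Parental +OHT and 5.91 CPM in RING1B WT +OHT.

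The promoters of the most clearly changed genes are shown first, for their CpG content. Each run is the RefSeq promoter from 250 bases before to 50 bases after a start (GRCm38.p6), printed 5′ to 3′ on the gene's strand, with CpG dinucleotides in capitals. Esx1 (chrX:137120277-137120576) and Gata3 (chr2:9878551-9878850) were the leading genes lower in RING1B WT. Tdgf1 (chr9:110946109-110946408) and Aoah (chr13:20793863-20794162) were among the leading genes higher in RING1B WT.
Esx1: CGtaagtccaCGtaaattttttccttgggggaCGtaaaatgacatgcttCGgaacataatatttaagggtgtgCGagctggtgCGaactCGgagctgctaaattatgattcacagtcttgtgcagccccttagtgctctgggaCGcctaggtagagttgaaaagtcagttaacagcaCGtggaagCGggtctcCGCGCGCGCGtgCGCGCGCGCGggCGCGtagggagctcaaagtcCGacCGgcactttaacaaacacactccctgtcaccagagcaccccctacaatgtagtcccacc
Gata3: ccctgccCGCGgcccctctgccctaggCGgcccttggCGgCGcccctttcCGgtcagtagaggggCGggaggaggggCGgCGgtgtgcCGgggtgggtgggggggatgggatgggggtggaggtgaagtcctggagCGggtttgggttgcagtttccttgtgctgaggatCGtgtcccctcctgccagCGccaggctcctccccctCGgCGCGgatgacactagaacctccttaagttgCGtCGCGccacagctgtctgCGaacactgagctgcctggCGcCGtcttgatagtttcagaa
Tdgf1: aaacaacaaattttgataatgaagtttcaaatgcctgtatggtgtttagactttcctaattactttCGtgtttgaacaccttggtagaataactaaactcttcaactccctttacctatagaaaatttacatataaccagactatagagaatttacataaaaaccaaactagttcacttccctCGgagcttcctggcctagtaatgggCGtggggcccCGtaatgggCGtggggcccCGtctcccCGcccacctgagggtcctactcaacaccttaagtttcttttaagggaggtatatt
Aoah: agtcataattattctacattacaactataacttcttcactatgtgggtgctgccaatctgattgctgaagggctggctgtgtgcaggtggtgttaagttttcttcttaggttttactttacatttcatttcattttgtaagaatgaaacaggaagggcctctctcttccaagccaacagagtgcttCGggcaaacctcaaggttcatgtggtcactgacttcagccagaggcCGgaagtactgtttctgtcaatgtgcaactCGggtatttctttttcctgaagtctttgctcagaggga
The Esx1 and Gata3 windows hold 24 and 22 CpGs, and those of Tdgf1 and Aoah hold 7 and 3. The median over all 32851 promoter sequences of the reference set was 7, and over the 15822 promoters of tested genes in that set it was 19. In windows of the same length placed at the annotated 5′ end of each tested gene, the median was 13 CpGs for genes called lower, 6 for genes called higher and 15 for all 18147 genes with a window, so that it was the higher set and not the lower one that stood furthest from the whole.

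Esx1, an X-linked homeobox gene of the placenta, was the gene most clearly lower in RING1B WT (chrX:137115397-137122083). It stood at 226 and 215 CPM in Parental +OHT and at 16.5 and 18.4 CPM in RING1B WT +OHT, a change of -3.66 ± 0.25 on the log2 scale (adjusted p = 4.46e-08). Without OHT it stood at 9.61 and 6.55 CPM in Parental and at 6.42 and 4.5 CPM in RING1B WT. The level with the transgene was thus far below that of Parental +OHT, and both of its values lay above all 4 values without OHT.

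Gata3, a transcription factor of trophoblast and T cells (chr2:9857078-9890034), rose from 0.489 and 0.494 CPM to 52.9 and 51.8 CPM with OHT in Parental, and stood at 4.93 and 7.6 CPM in RING1B WT +OHT. It was 8.4-fold lower with the transgene (log2 fold change -3.07 ± 0.27, adjusted p = 3.35e-07). Ccnd2, which encodes cyclin D2, was 9.78-fold lower, with 195 and 166 CPM in Parental +OHT and 13.4 and 23.7 CPM in RING1B WT +OHT (adjusted p = 3.63e-07). In both genes RING1B WT +OHT lay above the 4 libraries without OHT.

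Podxl, encoding the sialomucin podocalyxin (chr6:31519488-31563981), differed from these in its level with the transgene. It stood at 57.0 and 61.9 CPM in Parental +OHT and at 12.3 and 11.6 CPM in RING1B WT +OHT, within the 7.79 to 13.8 CPM of the 4 libraries without OHT. Dgat2, a triglyceride-synthesising acyltransferase, stood at 58.2 and 47.7 CPM in Parental +OHT and at 9.36 and 8.59 CPM in RING1B WT +OHT, just above the 5.38 to 8.23 CPM without OHT. The OHT effect within RING1B WT was 0.49 for Podxl (adjusted p = 0.314) and 0.40 for Dgat2 (adjusted p = 0.534) on the log2 scale, and neither passed the test.

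The remaining genes among the 12 with the lowest adjusted p were of several kinds. Ly6h, a GPI-anchored Ly6 protein, was 7.73-fold lower, Pdpn, the mucin-like podoplanin, 4.35-fold, and Ddah1, an enzyme that breaks down methylated arginines, 4.29-fold. Car4, a membrane carbonic anhydrase, was 11.6-fold lower, with 36.3 and 29.9 CPM in Parental +OHT and 1.61 and 4.23 CPM in RING1B WT +OHT. AA467197 was 4.32-fold lower and kept 46.1 and 82.7 CPM with the transgene, and Cdkn1c is described with the cell cycle genes and Tex101 with the germline genes.

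**Figure D1:**
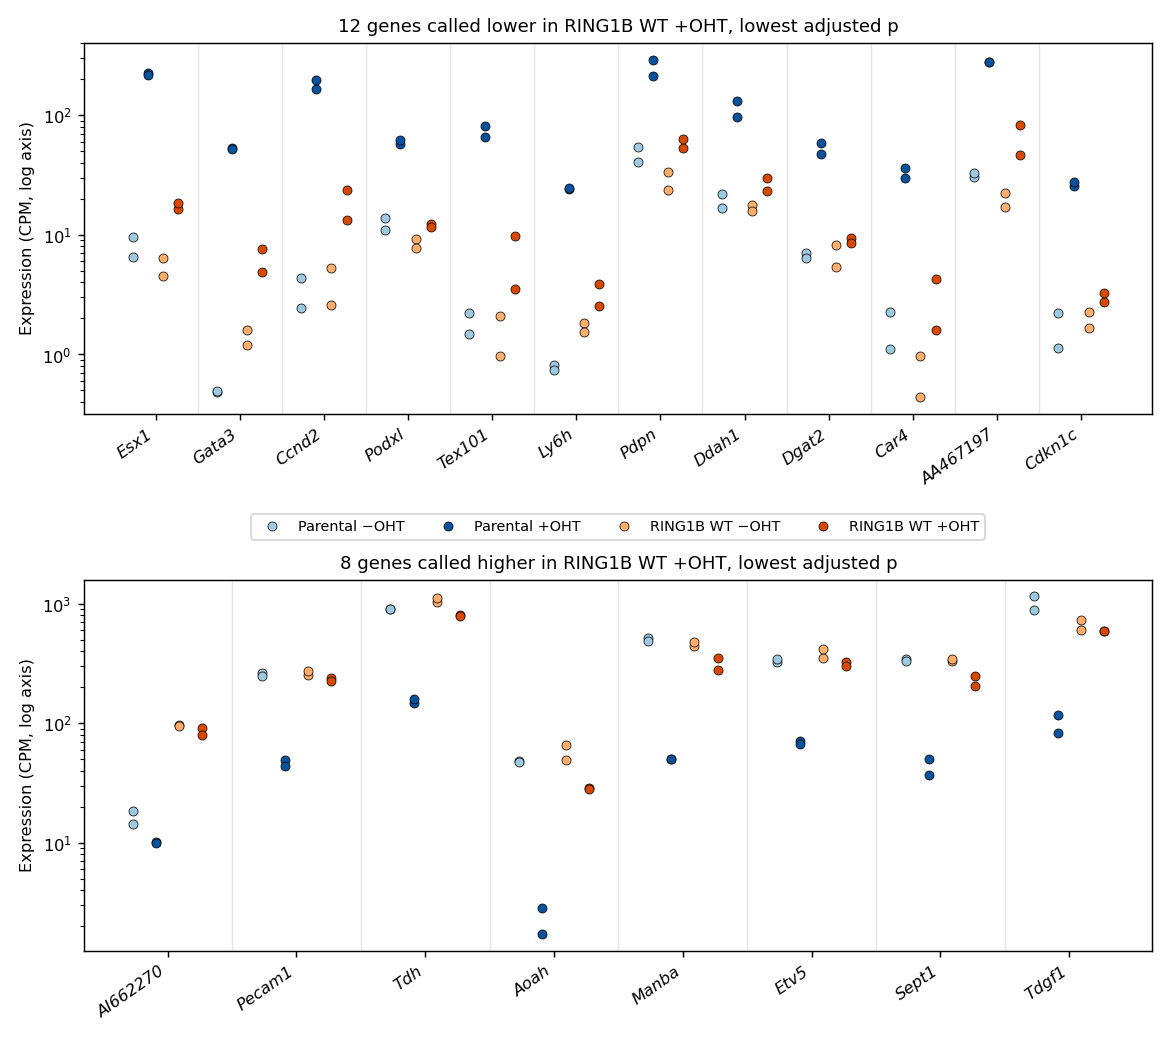
Expression in CPM (log axis) of the 12 genes called lower and the 8 called higher in RING1B WT +OHT with the lowest adjusted p, 1 point per library and 2 libraries per group. In the upper panel both Parental +OHT points lie above all other points of each gene, Esx1 for instance at 226 and 215 CPM. In the lower panel they lie below the RING1B WT +OHT points, and AI662270 also differs between the lines without OHT.

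The Hox genes, which set position along the body axis, were often lower. Of 39 listed genes 29 were expressed enough to be tested, and 18 of these were lower in RING1B WT, none higher, with a median log2 fold change of -2.34. Many of them passed the filter on low counts only through libraries in which they are high, since 11 to 16 of the 29 had no read in each −OHT library of the 2 lines, so the count and median describe these members and not the whole list. With at least 10 counts required in each library 2 Hox genes were tested and neither was called. The list's median OHT effect was 4.93 in Parental and 2.9 in RING1B WT, each against its own −OHT libraries. When the difference of the OHT effect between the lines was tested gene by gene, none of the 29 was called, with a median difference of -1.84. Over all tested genes 1.1% were called lower in that test. With 1 library left out the count was 9 and 8 for replicate 1 and 2 of Parental +OHT, and 4 and 14 for those of RING1B WT +OHT.

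Hoxb13, the last gene of the HoxB cluster (chr11:96194316-96197447), stood at 34.8 and 33.5 CPM in Parental +OHT and at 4.63 and 5.98 CPM in RING1B WT +OHT (6.45-fold lower, adjusted p = 8.45e-05). Its level with the transgene was above the 0.219 to 2.23 CPM seen without OHT in the 2 lines, and the OHT effect within RING1B WT passed the test at 3.41 on the log2 scale (adjusted p = 0.00304). Hoxa9 was 5.54-fold lower (13.2 and 9.75 against 1.21 and 2.99 CPM, adjusted p = 0.00126). Summed over the 29 tested members, Hox transcripts came to 177 and 163 CPM in Parental +OHT and to 32.7 and 53.8 CPM in RING1B WT +OHT. Reads were counted without regard to strand, so sense and antisense transcripts of the clusters are added together.

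Transcription factors of the germ layers followed. Among ectoderm and neural factors 22 of 41 tested genes were lower and none higher, with a median of -2.25. Among mesoderm and endoderm factors 18 of 39 were lower and none higher, with a median of -1.75. Summed over the tested members, the mesoderm and endoderm list came to 484 and 494 CPM in Parental +OHT against 435 and 445 CPM in RING1B WT +OHT, a far smaller difference than that of its median gene. Here too many members had no read without OHT, and with at least 10 counts required in each library 2 of 5 and 2 of 7 genes were lower. The members not called ranged up to 0.51 and 0.82 on the log2 scale. The 2 counts were 13 and 10 on omission of replicate 1 of Parental +OHT, 13 and 12 on omission of its replicate 2, and 9 and 7 without RING1B WT +OHT replicate 1.

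Sox9, a factor of neural crest and cartilage (chr11:112782224-112787760), had one of the steepest differences. It stood at 19.5 and 22.3 CPM in Parental +OHT and at 0.403 and 1.25 CPM in RING1B WT +OHT, a log2 fold change of -4.70 ± 0.56 (adjusted p = 1.76e-05), and without OHT it was between 0 and 0.856 CPM in the 4 libraries. Its OHT effect within RING1B WT, 0.85, did not pass the test (adjusted p = 0.674). The neural crest factor Pax3, by contrast, kept 3.52 and 3.74 CPM with the transgene, above 0.247 to 0.749 CPM without OHT, while being 4.76-fold lower than the 17.9 and 16.6 CPM of Parental +OHT (adjusted p = 0.00011). Msx1, a homeobox gene of limb and craniofacial mesenchyme, was 9.65-fold lower (adjusted p = 0.000239).

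Hand1, a factor of heart and trophoblast giant cells, stood at 20.9 and 20.6 CPM in Parental +OHT and at 2.92 and 3.99 CPM in RING1B WT +OHT (6.02-fold lower, adjusted p = 3.16e-05). Pitx1, the hindlimb homeobox gene, stood at 19.9 and 17.6 CPM against 2.01 and 4.23 CPM (6.11-fold lower, adjusted p = 0.000225). Both passed the test for a rise with OHT within RING1B WT as well, by 2.06 and 2.79 on the log2 scale. Sox7, an endoderm factor, had no read in either Parental −OHT library, 5.29 and 5.65 CPM in Parental +OHT, which is at least 37.2-fold above the level that 3 reads over the group would give, and 0.302 and 0.498 CPM in RING1B WT +OHT. Of the 10 primitive endoderm markers 6 were lower, among them Pdgfra, a growth factor receptor, at 15.5 and 17.3 CPM in Parental +OHT against 3.62 and 4.23 CPM. The summed level of these markers differed little, at 923 and 939 CPM in Parental +OHT and 818 and 862 CPM in RING1B WT +OHT. That count was 2 without RING1B WT +OHT replicate 1, and with at least 10 counts in each library none of 3 tested markers was lower (median -0.1).

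Among 18 tested trophoblast genes 9 were lower and none higher (median -1.44). Besides Esx1, Gata3 and Hand1 these included Cdx2, a founder factor of the trophectoderm, and Ascl2, an imprinted factor of the placenta. The list's summed level was 1350 and 1440 CPM in Parental +OHT, 561 and 584 CPM in RING1B WT +OHT and 382 to 467 CPM in the libraries of both lines without OHT. The count was 5 without replicate 1 of RING1B WT +OHT and 6 without replicate 2 of Parental +OHT.

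Signalling genes moved in both directions. Of 45 tested members of the Wnt and Tgf-beta families 18 were lower and 3 higher (median -1.37). The lower ones were mostly ligands and targets, such as Wnt3, Wnt5a, Wnt7a, Bmp6 and the BMP target genes Id1 and Id2. The 3 higher ones were Tdgf1, the Nodal co-receptor Cripto, and the Nodal antagonists Lefty1 and Lefty2. Lefty2 (chr1:180893108-180899103) had a mean of 140 CPM ± 30.9 (SD, n = 2) in Parental +OHT, stood at 675 and 623 CPM in RING1B WT +OHT and at 1230 to 1400 CPM in the 4 libraries without OHT, so its level with the transgene lay between the others. Lefty1 behaved alike, with 16.9 and 22.5 CPM against 129 and 89.8 CPM (5.58-fold higher, adjusted p = 3.69e-06). The lower count was 8 without replicate 1 of RING1B WT +OHT and 4 of 19 tested genes (median -0.54) with at least 10 counts in each library, and the higher count was 5 without replicate 1 of Parental +OHT.

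In FGF, Hedgehog, Notch and retinoic acid signalling 18 of 45 tested genes were lower and 1 was higher (median -1.13). Aldh1a2, which makes retinoic acid, stood at 37.8 and 36.5 CPM in Parental +OHT and at 5.74 and 7.1 CPM in RING1B WT +OHT (5.82-fold lower, adjusted p = 3.59e-05), close to the 4.06 to 6.58 CPM of the libraries without OHT. Rbp4, the retinol carrier, was 3.86-fold lower and, at 10.3 and 13.8 CPM, above the 2.84 to 5.16 CPM seen without OHT. Other lower members act in the same pathway, namely Crabp2, Stra6, Cyp26a1 and Cyp26b1, or are Notch ligands, namely Dll1, Dll3 and Dll4. The higher gene was Gli2, a Hedgehog effector, at 25.7 and 23.2 CPM against 94.6 and 81.8 CPM (adjusted p = 5.55e-06), and it stood at 55.9 and 48.7 CPM in Parental −OHT and 103 and 93.4 CPM in RING1B WT −OHT (difference 0.90 on the log2 scale, adjusted p = 0.133). Leaving out replicate 1 or 2 of Parental +OHT gave 9 and 10 lower genes, leaving out those of RING1B WT +OHT gave 6 and 10, and requiring 10 counts in each library gave 4 of 29 (median -0.29).

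Of 11 cell cycle regulators 3 were lower (Ccnd2, Cdkn1c and Cdkn2c). Cdkn1c, the imprinted inhibitor p57, stood at 25.8 and 27.6 CPM in Parental +OHT and at 2.72 and 3.24 CPM in RING1B WT +OHT (8.94-fold lower, adjusted p = 7.6e-06), not far from the 1.14 to 2.25 CPM without OHT. Cdkn2b, the inhibitor p15, was at 24.9 and 24.9 CPM against 8.35 and 11.3 CPM, and its log2 difference of -1.34 (adjusted p = 0.00334) was below the fold required, which it passed, at -1.57, without RING1B WT +OHT replicate 2. Without either Parental +OHT replicate the count was 2.

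Of 28 tested epithelial and adhesion genes 6 were lower and none higher (median -1.10). Col4a2, a chain of basement membrane collagen, was 4.76-fold lower (32.3 and 34.3 against 6.64 and 7.35 CPM, adjusted p = 2.56e-05). Its neighbour Col4a1 and the keratin Krt18 had log2 differences of -1.42 and -1.36, with adjusted p of 0.000245 and 0.000261, and were not called, although Col4a1 was called, at -1.61, without Parental +OHT replicate 1, and both, at -1.60 and -1.52, on leaving out the second RING1B WT +OHT library. The other lower members were Krt19 and the cadherins Cdh4, Cdh6, Cdh11 and Cdh13.

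Of 26 tested germline and meiosis genes 16 were lower in RING1B WT +OHT and none higher, with a median of -1.72. Tex101, a surface protein of germ cells, stood at 65.0 and 81.5 CPM in Parental +OHT and at 3.52 and 9.84 CPM in RING1B WT +OHT (11.2-fold lower, adjusted p = 3.62e-06). Mael, of the piRNA pathway, stood at 97.0 and 105 CPM against 15.5 and 27.3 CPM (4.76-fold lower, adjusted p = 7.6e-06). Sycp1, of the synaptonemal complex, stood at 60.0 and 58.3 CPM against 14 and 16.3 CPM (3.92-fold lower, adjusted p = 2.09e-05). In these 3 genes every RING1B WT +OHT library remained above the −OHT libraries of both lines, which held 0.963 to 2.23 CPM of Tex101, 5.78 to 12.4 CPM of Mael and 4.94 to 7.06 CPM of Sycp1. The count of lower members was 11 to 19 with 1 library left out, lowest without RING1B WT +OHT replicate 1, and 10 of 19 tested with at least 10 counts in each library.

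A short word, by which the germline list was not chosen, was more frequent in its RefSeq promoters than in those of tested genes. The E-box CACGTG, searched on both strands (it reads the same on each), occurred in 59.3% of the 27 promoters of the 22 listed germline genes that had an entry, against 9.56% of 15822 promoters of tested genes and 7.15% of all 32851. It lay in the windows of Mael (chr1:166238695-166238994), Sycp1 (chr3:102936051-102936350) and Tdrd1 (chr19:56825959-56826258, a Tudor protein of the piRNA pathway), printed with the E-box in capitals.
Mael: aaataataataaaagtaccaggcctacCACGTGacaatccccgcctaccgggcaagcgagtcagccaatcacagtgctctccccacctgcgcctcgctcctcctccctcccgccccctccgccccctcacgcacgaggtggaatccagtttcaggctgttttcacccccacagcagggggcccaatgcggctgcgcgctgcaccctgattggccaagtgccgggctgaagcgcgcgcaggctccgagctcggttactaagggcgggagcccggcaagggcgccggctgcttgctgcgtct
Sycp1: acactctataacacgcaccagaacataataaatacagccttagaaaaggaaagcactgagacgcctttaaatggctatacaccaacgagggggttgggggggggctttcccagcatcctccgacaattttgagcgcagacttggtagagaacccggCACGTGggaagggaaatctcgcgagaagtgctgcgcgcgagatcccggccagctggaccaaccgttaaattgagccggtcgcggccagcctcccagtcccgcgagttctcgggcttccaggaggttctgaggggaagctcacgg
Tdrd1: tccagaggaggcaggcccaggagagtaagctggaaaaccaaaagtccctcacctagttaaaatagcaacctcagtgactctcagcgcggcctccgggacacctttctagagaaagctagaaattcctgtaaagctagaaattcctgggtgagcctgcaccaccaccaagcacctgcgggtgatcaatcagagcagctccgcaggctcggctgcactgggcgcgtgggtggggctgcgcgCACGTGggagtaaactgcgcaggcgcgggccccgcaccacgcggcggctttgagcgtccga
The E2F word TCCCGC occurred in 37.0% of the germline promoters and in 33.0% of promoters of tested genes, a much smaller difference. A match is a description of the sequence only. The E-box occurred in members called lower, namely Brdt, Mael, Mov10l1, Slc25a31, Sycp1, Taf7l and Tdrd1. It also occurred in members not called, namely Ddx4, Hormad1, Stag3, Stk31, Sycp3 and Tdrd9. Of the 26 tested members 15 had a RING1B peak within 2.5 kb of a start in RING1B WT +OHT.

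Genes of the 2-cell-like state, a rare state of cultured stem cells, were lower in each of the 5 tested members (median -4.64), at very low counts. These 5 passed the filter on low counts through Parental +OHT, the group where they are high. The count and median therefore describe these members and not the whole list. Without that filter 6 of 8 tested members were lower. Zscan4d stood at 4.18 and 2.73 CPM in Parental +OHT and at 0 and 0.249 CPM in RING1B WT +OHT (adjusted p = 0.00229), and Zscan4c at 3.59 and 2.53 CPM against 0.101 and 0.125 CPM (adjusted p = 0.0045). Zscan4f had no read in RING1B WT +OHT and was at least 7.8-fold lower there, with 3 reads over the group as the limit. The Zscan4 genes are near-identical copies, so reads cannot be assigned to one of them with certainty. The list summed to 12.4 and 9.36 CPM in Parental +OHT, 0.403 and 0.624 CPM in RING1B WT +OHT, and 0.402 and 1.12 CPM in RING1B I53S +OHT, which also lacks endogenous RING1B. The count of 5 was 3 with DESeq2, none of these genes had 10 counts in each library, and the count dropped to 1 without Parental +OHT replicate 1, and to 0 and 2 when replicate 1 and 2 of RING1B WT +OHT were left out.

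**Figure D2:**
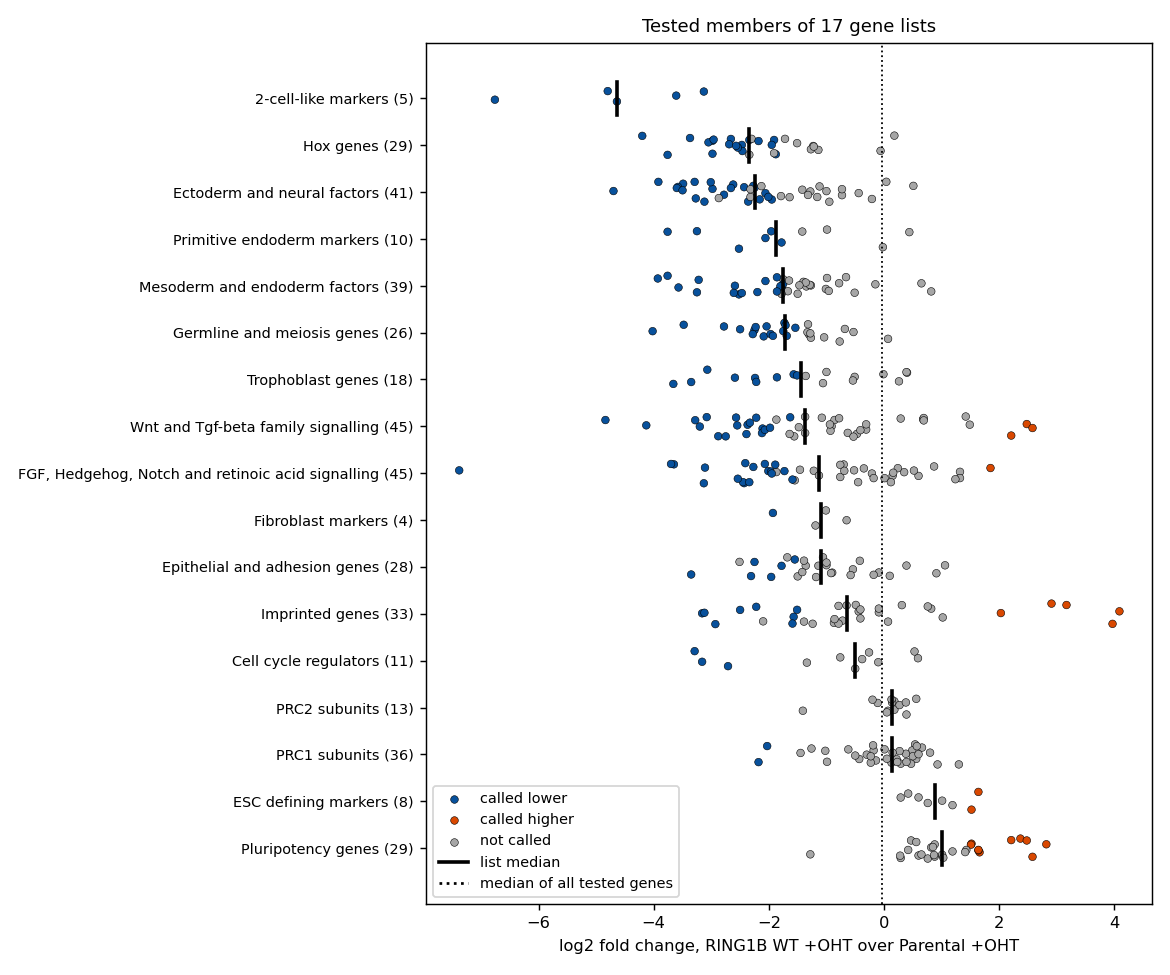
The log2 fold change of RING1B WT +OHT over Parental +OHT for the tested members of 17 gene lists (number tested in parentheses), 1 point per gene, with the list median as a bar and the median of all tested genes (-0.03) as a dotted line. Developmental and germline lists lie left of it, pluripotency genes right of it (median 1.01), and subunits of PRC1 and PRC2 around it.

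Genes of the pluripotent state tended to be higher in RING1B WT +OHT. Of 29 tested pluripotency genes 10 were higher and none lower, with a median log2 fold change of 1.01. A positive value was found for 28 of the 29, and the remaining member stood at -1.28. Of the 8 embryonic stem cell markers 2, Zfp42 and Sox2, were called higher (1 with DESeq2), and all 8 had a positive value. Over the 29 pluripotency genes the median OHT effect was -1.41 in Parental and -0.31 in RING1B WT. The 10 were Tdh, Tdgf1, Trh, Lefty2, Lefty1, Zfp42, Prdm14, Nr0b1, Sox2 and Klf2, and the count was 7 to 12 with 1 library left out.

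Tdh, the threonine dehydrogenase typical of mouse embryonic stem cells, stood at 147 and 160 CPM in Parental +OHT and at 805 and 786 CPM in RING1B WT +OHT (5.17-fold higher, adjusted p = 1.17e-07). Tdgf1 stood at 116 and 82.0 CPM against 589 and 595 CPM (5.98-fold higher, adjusted p = 1.4e-07). In RING1B WT neither changed with OHT by more than the test could detect, with log2 effects of -0.43 (adjusted p = 0.205) and -0.17 (adjusted p = 0.731). Trh, encoding thyrotropin-releasing hormone, was 7.06-fold higher than in Parental +OHT but, at 679 and 534 CPM, well under the 1670 to 2800 CPM of the libraries without OHT, and it was called lower with OHT within RING1B WT (-1.95, adjusted p = 0.00052). Zfp42, the marker Rex1, was 3.12-fold higher (adjusted p = 3.23e-05) and lost its call, at 1.49, without Parental +OHT replicate 2. Sox2 was 2.87-fold higher (adjusted p = 0.000188), at a log2 value of 1.52 that fell to between 1.41 and 1.5, just below the fold required, with DESeq2, with RLE normalization, under either other filter on low counts and on omission of Parental +OHT replicate 2 or RING1B WT +OHT replicate 1.

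The other genes most clearly higher were not on that list. Pecam1, the adhesion molecule CD31, stood at 48.8 and 43.8 CPM in Parental +OHT and at 239 and 225 CPM in RING1B WT +OHT (5.03-fold, adjusted p = 1.17e-07). Aoah, which deacylates bacterial lipopolysaccharide, stood at 1.71 and 2.83 CPM against 28.8 and 28.1 CPM (12.6-fold, adjusted p = 1.18e-07), and remained under the 47.3 to 66.1 CPM of the libraries without OHT. Manba, a lysosomal mannosidase, was 6.28-fold higher, Etv5, an ETS factor downstream of FGF signalling, 4.56-fold, and Sept1, a septin, 5.17-fold. For Pecam1 and Etv5 the OHT effect within RING1B WT was -0.19 and -0.29 (adjusted p = 0.643 and 0.42).

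Few subunits of the Polycomb complexes were called between the lines after OHT. Within Parental, OHT raised 6 of 36 PRC1 genes and lowered 1. In RING1B WT +OHT against Parental +OHT 2 of the 36 were lower, among them the chromobox gene Cbx8, and none was higher. Over all tested genes 7.62% were lower and 1.06% higher, so these small counts do not set the PRC1 list apart. Bcor, of the PRC1.1 variant, and Phc1, of canonical PRC1, differed by -1.45 and 1.30 on the log2 scale (adjusted p = 5.06e-05 and 5.55e-05) and were not called, Bcor passing the fold without Parental +OHT replicate 1 (-1.57) or RING1B WT +OHT replicate 2 (-1.55) and with at least 10 counts required in each library (-1.53). None of 13 PRC2 genes was called by edgeR or DESeq2, with Eed at 144 and 126 CPM against 213 and 186 CPM (adjusted p = 0.061) and Suz12 at 200 and 165 CPM against 242 and 237 CPM (adjusted p = 0.266). Phf19, a PRC2 accessory subunit, had the lowest adjusted p of these, 0.0182, at -1.41, and it passed the fold, at -2.18, without RING1B WT +OHT replicate 1.

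The lines also differed before OHT, in few genes. Without OHT 9 genes were higher in RING1B WT than in Parental (0.0496% of those tested) and 2 were lower (0.011%). An unadjusted p under 0.05 was found for 825 of 18154 genes, no more than that threshold would give without any difference. This comparison shares no library with that of the OHT-treated cells, and each of the 11 genes was called there in the same direction. Non-coding RNAs and Rtl1 of the Dlk1-Dio3 imprinted domain on chromosome 12 were prominent among them, whereas Dlk1 and Dio3 themselves were not called without OHT and were lower in RING1B WT after OHT. Meg3, its maternally expressed non-coding RNA (chr12:109541001-109571726), stood at 7.09 and 3.46 CPM in Parental −OHT and 126 and 89.5 CPM in RING1B WT −OHT, and at 5.21 and 6.34 CPM against 118 and 78.5 CPM after OHT. Rian, from the same domain, differed by 4.37 without OHT (adjusted p = 7.87e-07) and by 3.97 with OHT (adjusted p = 2.67e-07). RING1B I53S −OHT was also above Parental −OHT, at 180 and 71.6 CPM of Meg3 and 163 and 90.6 CPM of Rian, so these levels were not particular to the RING1B WT line.

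Of 33 tested imprinted genes 8 were lower and 5 higher after OHT, and 4 of the 5 higher ones, Rian, Meg3, Mirg and Rtl1, were also called without OHT. Because counting ignored the strand, any antisense RNA over the exons of Rtl1 would be counted with it. The Y-linked Uty stood at 5.54 and 7.05 CPM in Parental −OHT and 32.0 and 40.7 CPM in RING1B WT −OHT, and at 1.28 and 2.63 CPM against 27.5 and 28.3 CPM after OHT. In RING1B I53S −OHT Uty stood at 34.8 and 37.4 CPM. AI662270 and Gm11427, transcripts that overlap on chromosome 11, were the others named here, and for overlapping genes the reads cannot be assigned to one alone. AI662270 had the lowest adjusted p among the higher genes, and it stood at 14.4 and 18.3 CPM in Parental −OHT and 96.4 and 94.2 CPM in RING1B WT −OHT. Its level in RING1B I53S −OHT, 37.4 and 35.4 CPM, lay between these. For these genes the difference after OHT was present before it, whereas over all 192 higher and all 1384 lower genes the median difference without OHT was 0.18 and -0.17. The imprinted lower count was 5 without RING1B WT +OHT replicate 1, and the 2 genes lower before OHT became 5 and 0 when replicate 1 and 2 of Parental −OHT were left out.

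A further choice of genes came from a contrast of other libraries, those of the mutant line. In RING1B I53S cells, 2323 genes rose with OHT (12.8% of those tested) and 188 fell (1.04%), a contrast between the 4 libraries of that line within the fit of 12 libraries. The filter, the scaling and the estimate of spread in that fit are shared with the libraries compared here. Of the 2323 raised genes 1166 (50.2%) were lower in RING1B WT than in Parental after OHT and none was higher, and 99.3% had a negative log2 fold change, with a median of -1.77. Of the 188 lowered genes 89 (47.3%) were higher in RING1B WT and none lower, with a median of 1.63. Without 1 of the 4 libraries compared the raised genes' median was between -1.90 and -1.67, while the count was 483 without RING1B WT +OHT replicate 1, and 678 and 700 when either Parental +OHT library, replicate 1 or 2, was dropped.

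The larger the rise in RING1B I53S, the more of the genes were called. Of the genes raised there by 1.5 to 2 on the log2 scale 25.5% were called lower in RING1B WT, of those raised by 2 to 3 48.8%, by 3 to 4 62.8%, and by 4 or more 68.0%. The median OHT effect in Parental grew over these classes from 1.92 to 4.74, and that in RING1B WT from 0.9 to 2.14. With the transgene the median effect was thus lower in every class and above 0 in every class.

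**Figure D3:**
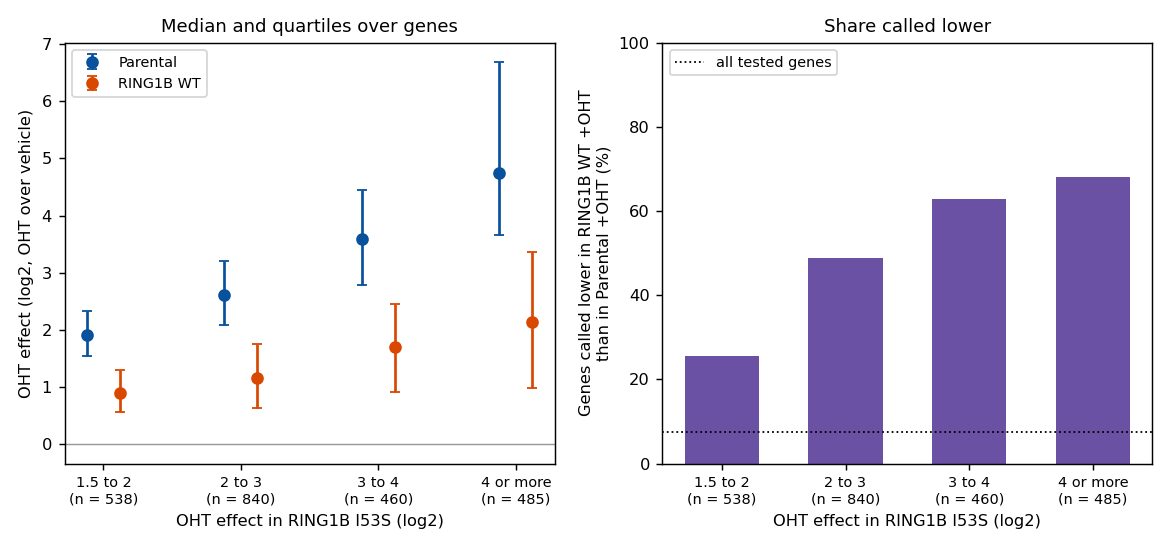
Genes raised by OHT in RING1B I53S, in 4 classes of that rise on the log2 scale with the number of genes. Left, the median OHT effect with its quartiles over genes in Parental and in RING1B WT, each against its own libraries without OHT, from 1.92 and 0.9 in the first class to 4.74 and 2.14 in the last. Right, the share called lower in RING1B WT +OHT than in Parental +OHT, from 25.5% to 68.0%, with the 7.62% of all tested genes as a dotted line.

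Of the 200 genes that rose most clearly in RING1B I53S 168 were called lower in RING1B WT, and all 200 had a negative value. The 5 least lower were Btg2, an antiproliferative gene, the keratin Krt7, the protease inhibitor Serpine2, the extracellular peroxidase Gpx3 and the laminin chain Lamb1, with log2 fold changes between -1.11 and -0.84. Btg2 stood at 221 and 241 CPM in Parental +OHT, 115 and 144 CPM in RING1B WT +OHT and 42.5 to 56.7 CPM without OHT. Serpine2 stood at 243 and 229 CPM in Parental +OHT, at a mean of 115 CPM ± 5.8 (SD, n = 2) in RING1B WT +OHT and at 33.7 to 47.2 CPM without OHT. Their adjusted p were 0.0055 and 0.000476, so the differences passed the test of significance and not the fold.

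Some genes still rose with OHT in the presence of the transgene. Within RING1B WT 244 genes rose with OHT (1.34% of those tested) and 7 fell (0.0386%). RING1B WT +OHT was higher than Parental −OHT in 189 genes (1.04%) and lower in 10 (0.0551%), a comparison that also carries the difference between the lines. Among the genes described above, Gata3 rose by 2.13 within RING1B WT and stood 3.63 above Parental −OHT on the log2 scale, Ccnd2 by 2.23 and 2.49, and Tex101 by 2.1 and 1.86, the 2 comparisons sharing the RING1B WT +OHT libraries. These counts rest on single libraries. The 244 became 21 and 28 when the second RING1B WT library without and with OHT was left out, and the 189 became 37 when the second RING1B WT +OHT library was left out and 111 and 66 for replicate 1 and 2 of Parental −OHT. The 7 genes that fell became 18 and 2 when replicate 1 and 2 of RING1B WT +OHT were dropped and 4 without replicate 2 of RING1B WT −OHT, and the 10 lower than in Parental −OHT became 25 and 1 in the same 2 fits without a RING1B WT +OHT library. The median effect in RING1B WT over the 2323 genes raised in RING1B I53S, 1.26, was between 1.04 and 1.66 in those fits.

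The difference of the OHT effect between the lines was tested as well, in 1 term over 8 libraries, which sets aside any difference present without OHT. The OHT effect was lower in RING1B WT for 200 genes (1.1% of those tested) and higher for 79 (0.435%). Sox9, with OHT effects of 6.35 in Parental and 0.85 in RING1B WT, differed by -5.50 (adjusted p = 0.0229), Gata3 by -4.57 (adjusted p = 0.000106) and Esx1 by -3.08 (adjusted p = 0.000113). In the other direction Aoah differed by 3.39 (adjusted p = 2.38e-05) and Tdgf1 by 3.19 (adjusted p = 6.49e-06). The number of lower genes was 43 without replicate 1 of RING1B WT +OHT, 80 and 68 for replicate 1 and 2 of Parental +OHT, 83 for replicate 1 of RING1B WT −OHT and 99 for replicate 2 of Parental −OHT. That of higher genes was 45 without the first RING1B WT +OHT library, 44 without the second of Parental +OHT and 48 without the first of RING1B WT −OHT.

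Promoter peaks were counted next, to see whether the genes lower with the transgene had RING1B at their starts more often than the rest. A RING1B peak within 2.5 kb of an annotated start was listed in RING1B WT +OHT for 808 of the 1384 lower genes (58.4%, 95% Wilson interval 55.8 to 61.0), for 4 of the 192 higher genes (2.08%) and for 14.8% of all tested genes. In Parental +OHT the shares were 0.289%, 0% and 1.72%. In Parental −OHT, with endogenous RING1B, they were 66.4%, 5.73% and 19.8%. Intervals cover counting error only, and the ChIP data hold 1 peak list per antibody and group, called by the authors per library, so a share of listed peaks also moves with the depth and background of that library.

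H2AK119ub1 peaks were listed for 72.3% of the lower genes in RING1B WT +OHT, 47.5% in Parental +OHT and 67.8% in Parental −OHT. In Parental +OHT, which lacks both ligases, these are listed peaks and not levels of the mark. The corresponding shares for H3K27me3 were 81.1%, 66.8% and 83.4%, and for SUZ12, a core PRC2 subunit, 73.3%, 61.9% and 79.9%. For the higher genes the shares of these 3 were between 5.21% and 14.1% in the 3 groups, under the 22.5% to 32.1% of all tested genes.

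**Figure D4:**
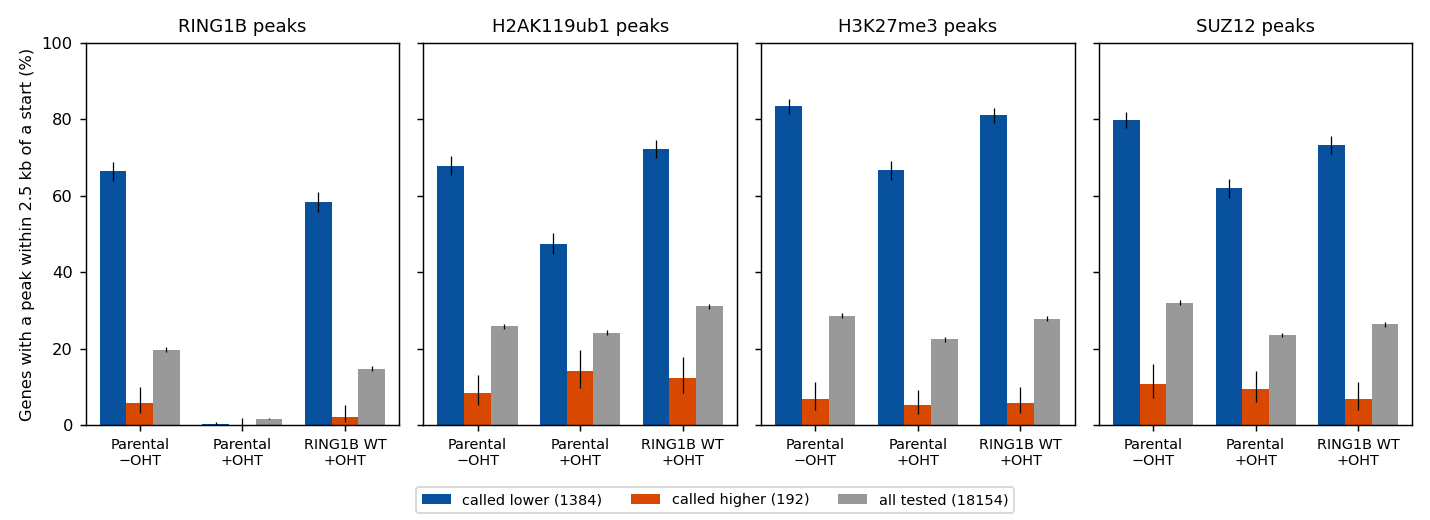
Share of genes (percent) with a listed peak within 2.5 kb of a start, for genes called lower, genes called higher and all tested genes, in 1 peak list per antibody and group, with 95% Wilson intervals. RING1B peaks at lower genes are listed for 66.4% in Parental −OHT, 0.289% in Parental +OHT and 58.4% in RING1B WT +OHT, and bars of the higher genes stay at 14.1% or less throughout.

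The expression difference went with the RING1B peak score in RING1B WT +OHT. Of 15461 genes without a peak 3.73% were called lower, and of the genes in the low, middle and high class of the score, 3 classes of 893 to 902 genes each, 14%, 29.7% and 46.2% were. The median log2 fold change in these 4 classes was 0.05, -0.51, -1.16 and -1.78. Median OHT effects in Parental were -0.08, 0.77, 1.77 and 2.94, and in RING1B WT -0.02, 0.25, 0.58 and 0.97. Genes without a peak at a start nonetheless made up 576 of the 1384 lower genes.

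Of the 12 genes with the lowest adjusted p among the lower ones 9 had a RING1B peak at a start in RING1B WT +OHT. Podxl, Ccnd2 and Gata3 had scores (−log10 p of the peak caller) of 158, 117 and 79.3, and of 252, 180 and 110 in Parental −OHT. Tex101, Pdpn and AA467197 had none in either group. None of the 8 leading higher genes had a RING1B peak in RING1B WT +OHT, and in Parental −OHT only Etv5 had one (score 22.9). Among the 2323 genes raised in RING1B I53S, those with a RING1B peak in RING1B WT +OHT were called lower in 56.7% of 1304 cases and those without in 41.9% of 1019.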

How the data were processed

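RNA was sequenced as poly-A SMART-seq2 libraries. The deposited table holds raw counts per gene, made by the authors with STAR v2.7 on mm10 without multi-mapped reads, duplicate removal with samblaster, and featureCounts over exons of GENCODE M21 gene names without strand. The ChIP peak lists were deposited with a −log10 p-value per peak. The authors aligned these with Bowtie v1.2.2 and called peaks per library against an input with MACS2 v2.1.1.

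Counts of 4 further libraries, labelled Eed, were not used here. Counts of 12 libraries (8140106 to 12743460 reads) were filtered to 18154 of 55341 genes with filterByExpr, scaled by TMM and tested with edgeR 4.0.16 (quasi-likelihood, 1 coefficient per group, Benjamini-Hochberg adjustment over all tested genes). CPM use TMM-scaled totals, and errors are SE. A call required an adjusted p under 0.05 and a log2 change of 1.5 or more in either direction. In simulated counts for the main comparison, 89.0% of 100 genes changed by 2 and 99.0% of 100 changed by 3 on the log2 scale were called, with 8 false calls among 17391 genes. These shares are not split by expression level, and the share for genes under 1 CPM was not tested. Of the lower genes 44.6% stood under 1 CPM in RING1B WT +OHT. Alternatives were DESeq2 1.42.0, other filters, RLE scaling, a replicate block, other thresholds and leaving out each library. Promoter peaks were those overlapping 2.5 kb around any start. Replicates of a group differed by more than sampling noise.

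The genes named are Rnf2 and Ring1, the 12 lower and 8 higher genes of lowest adjusted p, the 3 of lowest adjusted p in each list, and the 5 leading genes of 3 further sets (lower yet raised by OHT in RING1B WT, called alike without OHT, least lower among the 200 most clearly raised in RING1B I53S). Further list members are named without values, and 2 genes that this rule names are not reported here. The comparison, lists and tests were chosen with earlier results of these data known. The 17 lists also held 13 PRC2 and 10 2-cell-like genes, of which 5 were tested.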

Additional observations from a re-analysis of the deposited data

Results flagged for a closer look

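RING1B WT and Parental differed in their response to OHT, by the test of the difference itself (edgeR quasi-likelihood test over 8 libraries, adjusted p under the threshold and a difference past the fold), for 200 genes with a lower effect in RING1B WT and 79 with a higher one. These are 1.1% and 0.435% of the genes tested. Among the 68 genes chosen by rule, 33 were in this set, 20 lower and 13 higher, with adjusted p of at most 0.0417. Most of the 68 were chosen by a low adjusted p in RING1B WT +OHT against Parental +OHT. The test of the difference uses those 4 libraries too, so the choice itself favours a high count, which is not a separate result. The values that follow are the OHT effect in RING1B WT minus that in Parental, on the log2 scale.

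The lower ones were transcription factors, Sox7 (-7.61), Sox9 (-5.50), Pitx1 (-4.61), Gata3 (-4.57), Hand1 (-4.27), Pax3 (-3.10), Esx1 (-3.08), growth and differentiation genes, Ccnd2 (-3.54), Cdkn1c (-3.43), Pdgfra (-2.73), Rbp4 (-2.69), Aldh1a2 (-2.67), germline genes, Tex101 (-3.24), Sycp1 (-1.87), and surface, matrix and metabolic genes, Ly6h (-4.04), Dgat2 (-2.56), Col4a2 (-2.31), Ddah1 (-1.89), Col4a1 (-1.83), Podxl (-1.78). Sox7 had no read in Parental −OHT, so its value depends on the prior count of the fit.

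The higher ones were genes of the pluripotent state and others expressed without OHT, Sox2 (1.53), Phc1 (1.56), Zfp42 (1.66), Etv5 (1.99), Tdh (2.13), Pecam1 (2.29), Lefty2 (2.31), Sept1 (2.39), Trh (2.49), Lefty1 (2.52), Manba (2.77), Tdgf1 (3.19), Aoah (3.39). The Phc1 difference after OHT alone, 1.30, was below the fold, while the difference of the OHT effects passed it.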

How the results depend on the processing

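A minimum of 10 counts in each library, which left 12929 genes to test and drops those near 0 without OHT, gave 303 lower and 81 higher genes, 77 genes raised by OHT in RING1B WT, 124 with a lower OHT effect in RING1B WT than in Parental, 57 higher in RING1B WT +OHT than in Parental −OHT, 5 higher in RING1B WT without OHT, and 251 lower among those raised in RING1B I53S. Without a fold threshold 2244 genes were lower and 1046 higher, and at a log2 fold change of at least 1 the higher count was 426. DESeq2 gave 1160 lower and 154 higher genes, and 4 lower without OHT. With 1 library left out, so that a lone sample is assumed to vary like the other groups, lower genes ranged from 560 to 988 and higher genes from 124 to 164, genes raised by OHT in RING1B WT from 21 to 251 and lowered from 2 to 18, those with a lower OHT effect in RING1B WT from 43 to 195 and with a higher one from 44 to 82, those above Parental −OHT from 37 to 191 and below it from 1 to 25, those higher without OHT from 7 to 9 and lower from 0 to 5, and those raised in RING1B I53S and lower in RING1B WT from 483 to 1086. At a peak score of at least 20, RING1B peaks were listed for 48% of the lower genes, and H2AK119ub1 peaks for 48.4% of the lower and 3.65% of the higher. For the genes chosen by rule no direction reversed, and 636 of 661 single-gene values under alternatives kept their side of the threshold, the rest being 17 calls lost and 8 gained, mostly of Sox2, Col1a2 and Zscan4 genes. The replicate block, for numbers that the labels do not tie to a shared culture, gave 1478 lower and 207 higher genes. With only 2 pairs the pairing check (r = 0.17 between the 2 groups) shows only that the samples share a number. Depth limits low genes most, since 1 read is about 0.1 CPM. The cause of these shifts was not tested beyond the number of genes or samples used.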
